A study of Mus musculus with 57 samples.

Results

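The proteasome genes described here are the 47 mouse genes with an array-annotation symbol that starts with Psma, Psmb, Psmc, Psmd, Psme, Psmf or Psmg and a digit, out of 18165 genes that had a probe set of their own. They fall into 7 alpha subunits of the 20S core, 6 constitutive beta subunits, the 3 immunoproteasome subunits Psmb8, Psmb9 and Psmb10, 6 ATPases and 11 non-ATPase subunits of the 19S cap, and 7 assembly chaperones. The remaining 7 are the PA28 activator subunits Psme1 and Psme3, the further regulators Psme4 and Psmf1, and Psma8, Psmc3ip and Psme3ip1, which share the symbol pattern only or are restricted to germ cells. Of several probe sets for a gene the brightest on average was used, and all values are log2 signals of expression arrays. Levels are compared between groups of arrays for 1 gene at a time, because the brightness of different probe sets cannot be compared.

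The arrays came from a mouse leukaemia study with 14 groups. Mice carried the fusion CALM-AF10 (here CA10) or NUP98-HOXD13 (NHD13) under the Vav promoter, which is active throughout blood-forming cells, or were wild type. Leukemic spleens were taken once clinical signs of leukaemia had appeared, from CA10 mice (6 arrays) and NHD13 mice (6 arrays). Tissues of transgenic mice that had no such signs, called clinically healthy, were CA10 spleen (5 arrays), thymus from CA10 (4) and NHD13 (3) mice, whole bone marrow from CA10 (3) and NHD13 (3) mice, and lineage-negative bone marrow, which is depleted of mature cells, from CA10 (3) and NHD13 (3) mice. Wild-type groups were spleen (2 arrays), thymus (7), whole marrow (6), lineage-negative marrow (3) and a separate set of 3 whole marrows labelled C57B6. Littermates of the same age served as wild types where that could be done, and no mouse was treated. The labels give no ages, no strain for the groups other than C57B6, and no word on whether each array was a separate mouse, so p-values reflect array-to-array spread, which may be technical in part.

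The proteasome degrades proteins that carry ubiquitin chains. Its barrel-shaped 20S core has outer alpha rings that gate the entry and inner beta rings that hold the proteolytic sites, and the 19S cap recognises, unfolds and feeds in the substrate. In cells exposed to interferon, and in many blood cells without it, newly built cores take up Psmb8 in place of the chymotrypsin-like subunit Psmb5, Psmb9 in place of the caspase-like subunit Psmb6, and Psmb10 in place of the trypsin-like subunit. This immunoproteasome, often capped by the PA28 activator to which Psme1 contributes, cuts peptides suited to display on class I molecules.

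Psmb8 and Psmb9 lie on either side of the peptide transporter gene Tap1 in the class II region of the major histocompatibility complex on chromosome 17 (GRCm38.p6, positions 34198195 to 34201454 and 34182030 to 34187330), and Psmb10 lies on chromosome 8 (105935728 to 105938392). The constitutive subunits that Psmb8 and Psmb9 replace are Psmb5 on chromosome 14 (54614120 to 54617995) and Psmb6 on chromosome 11 (70525324 to 70527858). The promoters of these 5 genes are shown because Psmb8, Psmb9 and Psmb10 differed between the leukemic spleens while Psmb5 and Psmb6, which Psmb8 and Psmb9 replace, did not pass that test. Each runs 5′ to 3′ on the gene's own strand from 250 bases before a transcript start to 50 bases after it, taken from RefSeq on GRCm38.p6; for Psmb6 that start lies inside the gene's listed span. Capitals mark matches, on either strand, to 2 interferon-response cores (GAAANNGAAA and GAAANNNGAAA), the gamma-activated site TTCNNNGAA and the antioxidant-response core TGACNNNGC.
Psmb8, chr17:34197945-34198244, plus strand: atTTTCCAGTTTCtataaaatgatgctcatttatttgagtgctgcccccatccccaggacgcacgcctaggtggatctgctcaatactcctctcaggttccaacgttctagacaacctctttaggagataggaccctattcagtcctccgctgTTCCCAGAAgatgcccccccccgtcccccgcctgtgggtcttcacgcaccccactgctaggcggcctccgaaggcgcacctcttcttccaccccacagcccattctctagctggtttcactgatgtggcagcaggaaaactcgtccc
Psmb9, chr17:34187281-34187580, minus strand: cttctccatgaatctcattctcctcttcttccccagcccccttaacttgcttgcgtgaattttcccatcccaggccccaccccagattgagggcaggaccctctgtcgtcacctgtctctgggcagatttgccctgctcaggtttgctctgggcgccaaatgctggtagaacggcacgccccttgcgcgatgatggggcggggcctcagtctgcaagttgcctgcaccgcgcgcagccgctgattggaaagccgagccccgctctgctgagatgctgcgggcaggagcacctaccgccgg
Psmb10, chr8:105938343-105938642, minus strand: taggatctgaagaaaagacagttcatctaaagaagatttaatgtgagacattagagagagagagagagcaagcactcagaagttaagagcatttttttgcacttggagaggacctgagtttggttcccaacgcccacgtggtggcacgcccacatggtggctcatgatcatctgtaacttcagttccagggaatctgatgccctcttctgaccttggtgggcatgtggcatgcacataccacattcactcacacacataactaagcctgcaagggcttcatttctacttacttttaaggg
Psmb5, chr14:54617946-54618245, minus strand: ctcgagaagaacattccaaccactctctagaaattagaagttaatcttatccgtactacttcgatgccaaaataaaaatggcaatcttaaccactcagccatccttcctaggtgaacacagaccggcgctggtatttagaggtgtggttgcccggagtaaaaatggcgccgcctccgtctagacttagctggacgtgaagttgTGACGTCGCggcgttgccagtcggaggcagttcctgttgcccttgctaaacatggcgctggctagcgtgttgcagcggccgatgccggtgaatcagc
Psmb6, chr11:70525107-70525406, plus strand: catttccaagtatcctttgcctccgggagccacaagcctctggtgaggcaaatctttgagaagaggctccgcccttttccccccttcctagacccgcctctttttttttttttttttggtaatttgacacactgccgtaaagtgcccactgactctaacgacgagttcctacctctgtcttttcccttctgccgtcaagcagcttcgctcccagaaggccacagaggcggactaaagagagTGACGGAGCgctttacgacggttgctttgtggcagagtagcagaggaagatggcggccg

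The Psmb8 promoter held the wider-gap interferon core at -248 and the gamma-activated site at -97, in bases from that start. The Psmb9 and Psmb10 windows held none of the 4 capitalised motifs, which says only that these letters are not in these 300 bases. Psmb5 and Psmb6 each held the antioxidant-response core, at -47 and -9. Of the 47 genes, 40 had a promoter in the RefSeq table, with 43 promoters between them. The wider-gap core was in 2.75% of all 32851 promoters of the table and in those of Psmb3 and Psmb8, the gamma-activated site in 8.3% of all promoters and in those of Psmb8, Psmd2 and Psmg1, and the GAAANNGAAA core in 3.44% of all promoters and in those of Psmb3, Psmd4, Psmd9, Psme1 and Psmg4. The antioxidant-response core was in 12.4% of all promoters and in those of Psmb5, Psmb6, Psmc6, Psmd12, Psmd9 and Psme4. The site CCGGAAGT, bound by factors of the ETS family, was in 3.89% of all promoters and in 10 promoters of 9 proteasome genes, and the palindromic site of the factor NRF1 was in 4.6% of all and in 7 proteasome genes. The other motifs of the 9 searched were CCAAT (37.4% of all promoters, 15 proteasome genes), the GC box GGGCGG (35.7%, 23 proteasome genes) and TGACGTCA, the cyclic-AMP response element (1.79%, 0 proteasome genes). A match is a run of letters and not a measured binding site.

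Array medians lay between 5.44 and 5.85 on the log2 scale. Of the 47 genes, 45 were above the 40th percentile of their array on all 57 arrays, Psmd10 on 56 and Psma8, a testis-specific alpha subunit, on 9, and all 47 entered the tests among 15310 genes. The arrays formed 2 sets by the width of their values, 10 narrow and 47 wide. All 3 CA10 whole marrows, array 3 of every lineage-negative group, wild-type thymus 6 and the wild-type whole marrows numbered 4 to 6 were narrow. A gap between the 3′ and 5′ probe sets of Gapdh, a sign of RNA quality, stood out in lineage-negative NHD13 marrow 3 (2.95), healthy CA10 spleen 1 (2.09) and C57B6 marrow 2 (1.36). Wild-type thymus 2 stood against its label, with the lowest thymic-epithelium marker level of the thymus arrays (5.01, against 8.71 or more on the other 13) and the highest B-cell level (9.26). Bulk tissue cannot tell fewer cells of a type from less RNA per cell.

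Across the 14 groups, Psmb8 was highest in leukemic CA10 spleen, at 11.65 ± 0.28 (SD, n = 6), and lowest in lineage-negative NHD13 marrow, at 7.82 ± 0.61 (n = 3). Between these lay healthy NHD13 thymus (11.27 ± 0.16), wild-type thymus (11.12 ± 0.39), wild-type spleen (11.03 ± 0.18), healthy CA10 thymus (10.92 ± 0.57), healthy CA10 spleen (10.88 ± 0.31), leukemic NHD13 spleen (10.58 ± 0.65) and C57B6 marrow (10.53 ± 0.08). The other marrow groups followed, with NHD13 whole marrow at 9.95 ± 0.31, wild-type lineage-negative marrow at 9.62 ± 0.63, wild-type whole marrow at 9.60 ± 0.48, CA10 whole marrow at 9.30 ± 0.24 and lineage-negative CA10 marrow at 8.93 ± 0.26. Neighbours in this order differed by less than the larger of their SDs, except from leukemic CA10 spleen to NHD13 thymus, from C57B6 to NHD13 whole marrow, and at the steps down to lineage-negative CA10 and then to lineage-negative NHD13 marrow, whose arrays did not overlap. Psmb9 was also highest in leukemic CA10 spleen (10.96 ± 0.35) and lowest in lineage-negative NHD13 marrow (7.78 ± 0.55). Psmb10 was highest in healthy NHD13 thymus (10.58 ± 0.32), followed by leukemic CA10 spleen (10.30 ± 0.21), and lowest in lineage-negative NHD13 marrow (8.45 ± 0.37).

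**Figure D1:**
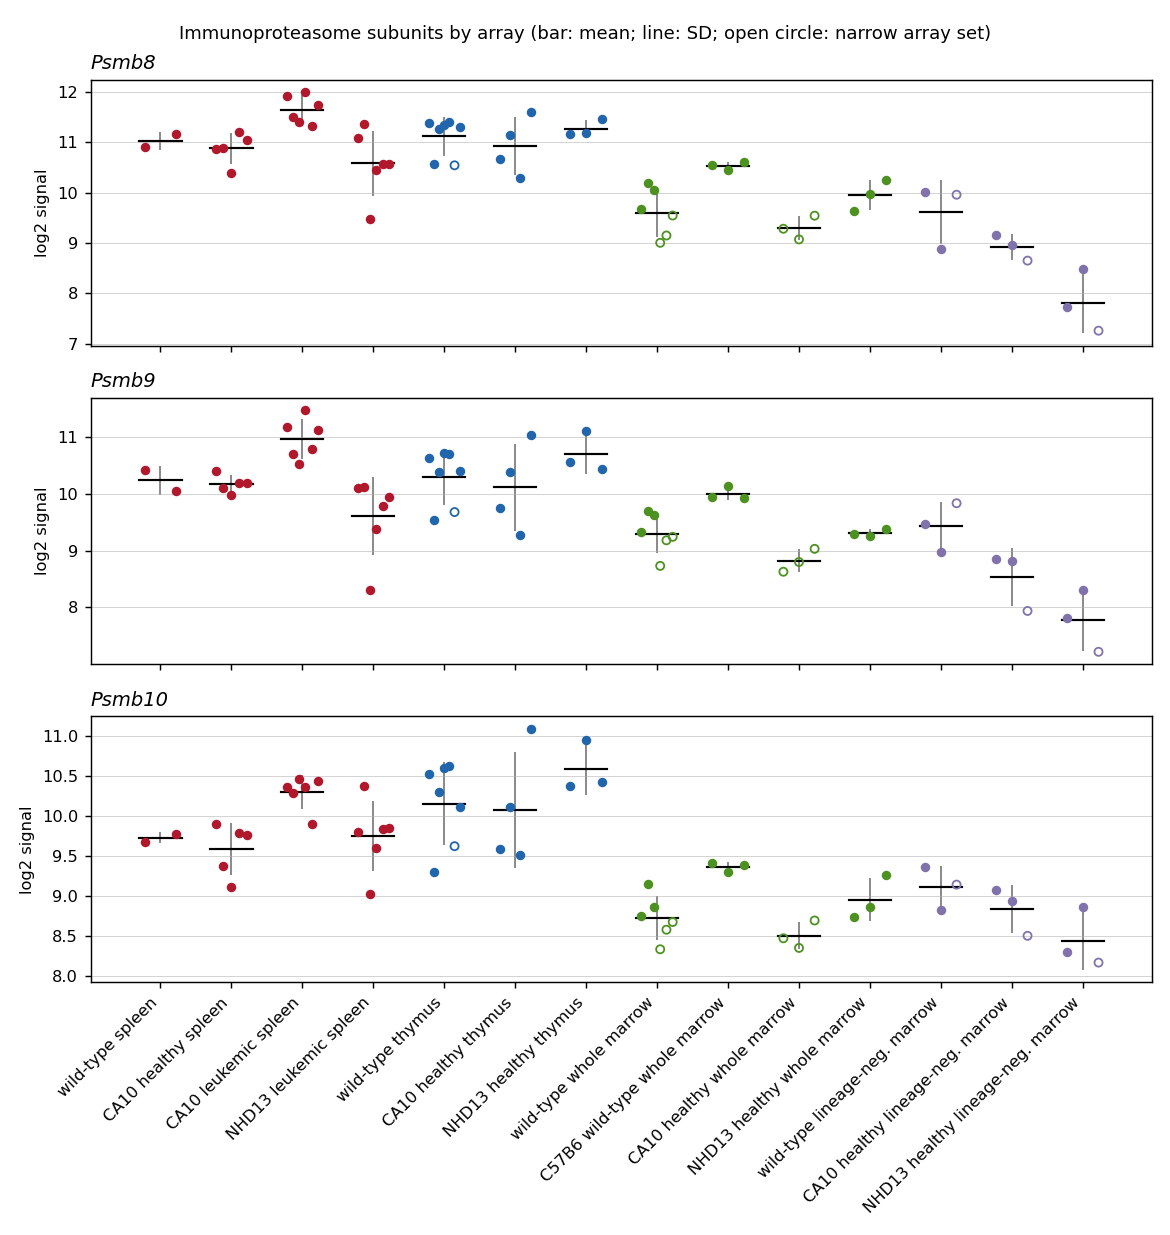
Log2 signal (vertical axis) of the immunoproteasome subunits Psmb8, Psmb9 and Psmb10 in the 14 groups; dots are arrays, open where the array belongs to the narrow set, bars are means and lines are 1 SD. The 6 leukemic CA10 spleens lie between 11.32 and 12.00 for Psmb8, and the 3 lineage-negative NHD13 marrows between 7.26 and 8.48.

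The first comparison asked which proteasome genes differed between the spleens of CA10 mice with leukaemia and those of clinically healthy CA10 mice, which carry the same transgene. Core and cap subunits were higher in the leukemic spleens, and so was the PA28 subunit Psme1. Of the 47 genes 16 rose and 0 fell, against 4.18% of all genes that rose and 6.01% called in either direction (limma, Benjamini-Hochberg adjusted p under 0.05 over all genes). The median change of the 47 was 0.42 on the log2 scale, and that of all genes 0.01. The groups did not overlap for 16 genes, all higher in leukemic spleen, against 3.75% of all genes.

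Psmb2, a beta-ring subunit without a proteolytic site of its own, read 8.36, 9.29, 8.51, 8.87 and 8.50 in the 5 healthy spleens. In the 6 leukemic spleens it ran from 9.60 to 10.21 with a median of 9.81, so the groups stood apart. It rose by 1.14 ± 0.16 (SE; limma adjusted p = 0.00193). Psmd8, a lid subunit of the 19S cap, read 9.15, 9.82, 9.27, 9.82 and 9.22 in healthy spleens and 10.19 to 10.57 with a median of 10.43 in leukemic ones, a rise of 0.95 ± 0.13 (adjusted p = 0.00193). Psma7, an alpha-ring subunit, read 10.86, 10.39, 10.78, 10.36 and 10.25 in healthy spleens and 11.07 to 11.67 with a median of 11.35 in leukemic ones, a rise of 0.81 ± 0.14 (adjusted p = 0.00535). For both genes every leukemic spleen lay above every healthy one. The chaperone Psmg4 rose by 0.86 ± 0.16 (adjusted p = 0.0101), the cap subunit Psmd6 by 0.58 ± 0.12 (adjusted p = 0.0149) and the constitutive beta subunit Psmb6 by 0.49 ± 0.10 (adjusted p = 0.0155). Among further probe sets of these called genes, 1 kept the direction but did not pass the test.

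By role, 5 of 7 alpha subunits rose (median change 0.62), 3 of 6 constitutive beta subunits (0.43), 4 of 11 non-ATPases (0.44), 1 of 6 ATPases (0.36) and 1 of 7 chaperones (0.24). Psme1 read 10.77, 10.54, 10.65, 10.79 and 10.79 in healthy spleens and 11.08 to 11.63 with a median of 11.29 in leukemic ones, with no overlap. It rose by 0.63 ± 0.11 (limma adjusted p = 0.00779). Among the immunoproteasome subunits Psmb10 passed the test and the other 2 did not. Psmb8 read 10.87, 10.88, 10.39, 11.20 and 11.05 in healthy spleens and 11.32 to 12.00 with a median of 11.62 in leukemic ones, a difference of 0.77 ± 0.25 (adjusted p = 0.0789). Psmb9 read 10.40, 10.10, 9.98, 10.19 and 10.20 against 10.52 to 11.47 with a median of 10.95, a difference of 0.79 ± 0.26 (adjusted p = 0.0817). Both genes stood apart between the groups although neither passed the test. Psmb10 rose by 0.71 ± 0.19 (adjusted p = 0.0386) with overlapping groups, at 9.90, 9.38, 9.12, 9.78 and 9.76 against 9.89 to 10.46.

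Of 17 tested genes that work beside the proteasome, 3 rose in leukemic CA10 spleen: Pomp, the maturation factor of the 20S core, by 0.61 (adjusted p = 0.0161), the cap-bound deubiquitinase Uchl5 by 0.83 (adjusted p = 0.0157), and Ufd1, a partner of the segregase p97, by 0.50 (adjusted p = 0.0348). Of 11 class I antigen-processing genes, only the chaperone Pdia3 rose (0.92, adjusted p = 0.0439). None of 14 interferon-signal genes passed (limma; 4 had an unadjusted p under 0.05, median difference 0.67). The mean level of B-cell markers was 8.70 to 11.51 in healthy and 6.07 to 9.46 in leukemic spleens, and that of myeloid granule genes 8.54 to 13.00 and 11.71 to 13.09. Monocyte markers did not overlap, at 9.003 to 9.73 in healthy and 9.91 to 10.62 in leukemic spleens. Healthy CA10 spleens 1 and 3 had granule levels of 13.00, within the leukemic range, and the part of cell makeup in these differences was not tested. The Gapdh gap averaged 0.724 in healthy and 0.0499 in leukemic CA10 spleens, and with it as a covariate 9 genes were called. The count of 16 fell to 5 without healthy CA10 spleen 5, to 8 without leukemic CA10 spleen 3 and to 9 without leukemic CA10 spleen 6. Calls among all genes fell with it, from 920 to 127, 274 and 378.

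**Figure D2:**
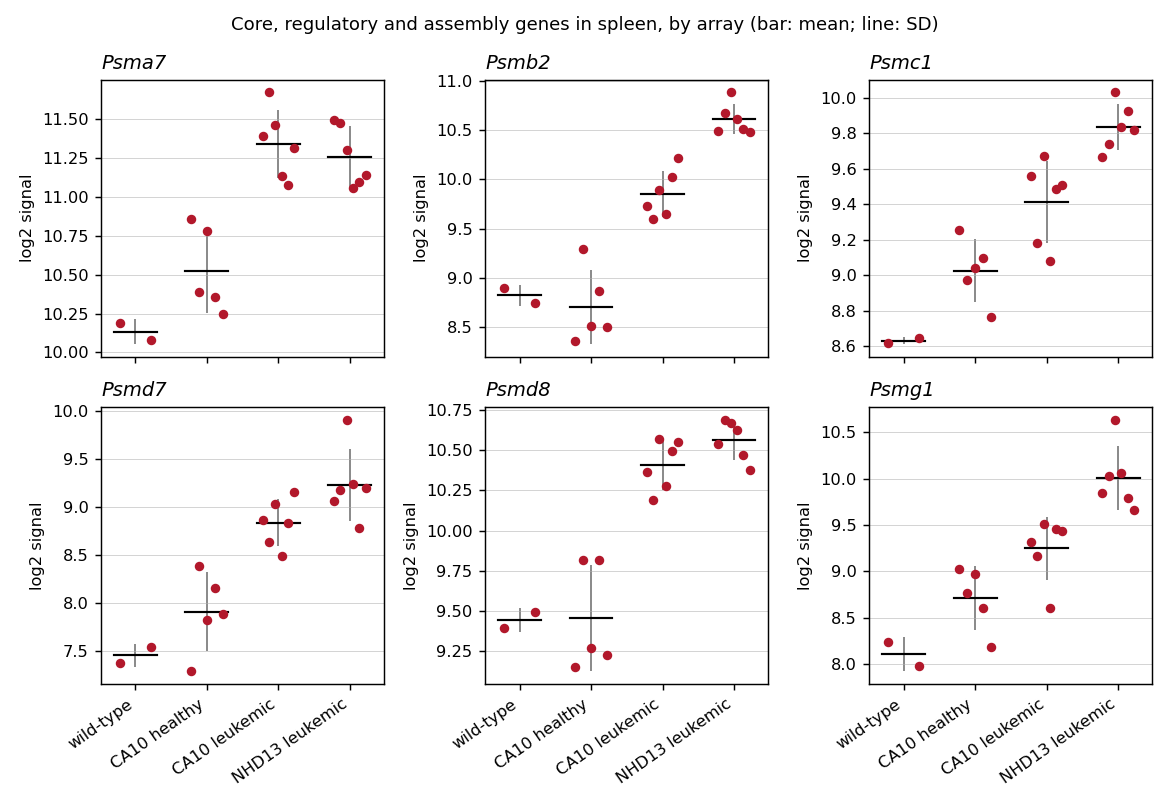
Log2 signal (vertical axis) of 6 proteasome genes outside the immunoproteasome in the 4 spleen groups; dots are arrays, bars means and lines 1 SD. Psmb2 runs from 8.36 to 9.29 in healthy CA10 spleens, from 9.60 to 10.21 in leukemic CA10 spleens and from 10.48 to 10.88 in leukemic NHD13 spleens.

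Set against the 2 wild-type spleens, leukemic CA10 spleens had higher means for 46 of the 47 genes. Among them 20 rose and 0 fell, against 8.05% of all genes called in either direction and 5.63% that rose, with a median change of 0.57 for the 47 and 0.03 for all genes. The groups did not overlap for 33 genes, all higher, against 20.2% of all genes. Psma7 read 10.19 and 10.08 in wild-type spleens, below the lowest leukemic CA10 spleen at 11.07, and rose by 1.20 ± 0.19 (limma adjusted p = 0.00434). The lid subunit Psmd7 read 7.37 and 7.54 in wild types and 8.49 to 9.15 in leukemic CA10 spleens, a difference of 1.38 ± 0.27 (adjusted p = 0.00954), but a further Psmd7 probe set gave -0.34, so its direction differed between probe sets. Psmd8 rose by 0.97 (adjusted p = 0.00801), the base ATPase Psmc1 by 0.78 (adjusted p = 0.0112), Psmb2 by 1.03 (adjusted p = 0.0115), and Psmd6 by 0.79 and Psmg4 by 1.07 (adjusted p = 0.0115 for both).

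The immunoproteasome differences against wild-type spleen were 0.61 ± 0.34 for Psmb8 (limma adjusted p = 0.281), 0.73 ± 0.35 for Psmb9 (adjusted p = 0.214) and 0.57 ± 0.26 for Psmb10 (adjusted p = 0.183). None passed the test, with 1 of 3 under an unadjusted p of 0.05, although the 2 wild-type spleens, at 10.90 and 11.16 for Psmb8, lay below all 6 leukemic CA10 spleens for each of the 3 genes. Psme1 rose by 0.56 ± 0.15 (adjusted p = 0.0336). Among the partners Uchl5 rose by 1.39 (adjusted p = 0.00637), Pomp by 0.76 and Sem1, a small lid subunit outside the symbol pattern, by 0.95 (adjusted p = 0.0389), and no class I or interferon-signal gene passed (0 of 11 and 0 of 14 by limma, with 3 of each list under an unadjusted p of 0.05). B-cell markers (11.17 to 11.46 in wild-type and 6.07 to 9.46 in leukemic CA10 spleens), T-cell markers (8.33 to 8.91 and 6.53 to 7.69), myeloid granule genes (9.70 to 9.82 and 11.71 to 13.09) and monocyte markers (9.08 to 9.13 and 9.91 to 10.62) did not overlap between the groups, and their part was not tested. Every call rested on both controls, since leaving out either wild-type spleen left 0 of 47 called. The same held for all genes, of which 1 was called without wild-type spleen 1 and 0 without wild-type spleen 2.

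No proteasome gene was called between clinically healthy CA10 spleens and wild-type spleens. None of the 47 passed (0% of all genes did; limma), and 3 of 47 were under an unadjusted p of 0.05, against 387 of all 15310. The differences were -0.15 for Psmb8, -0.06 for Psmb9, -0.14 for Psmb10 and -0.07 for Psme1, with adjusted p = 1 for each. The median over the 47 genes was 0.19. The groups did not overlap for 6 genes, all higher in healthy CA10 spleen, against 4.22% of all genes.

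Leukemic NHD13 spleens were compared with the same 2 wild-type spleens, so this comparison and that of leukemic CA10 spleen share their controls. Genes of the core, the cap and the chaperones rose here, and no immunoproteasome gene passed the test, with 0 of 3 also at an unadjusted p of 0.05. In all 33 of 47 rose and 0 fell, while 31.4% of all genes were called in either direction and 19.1% rose. The median change was 0.76 for the 44 genes outside the immunoproteasome and 0.04 for all genes. The groups did not overlap for 36 genes, all higher, against 22.4% of all genes.

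Psmb2 read 8.90 and 8.75 in wild-type spleens. In leukemic NHD13 spleens it ran from 10.48 to 10.88 with a median of 10.56, a rise of 1.78 ± 0.21 or 3.45-fold (limma adjusted p = 2.87e-05). Psmg1, a chaperone that assembles the alpha ring, read 8.24 and 7.97 in wild types and 9.66 to 10.64 with a median of 9.94 in leukemic spleens, a rise of 1.90 ± 0.26 or 3.73-fold (adjusted p = 0.000106). The lowest leukemic NHD13 spleen thus stood well above both wild types for these genes. The ATPase Psmc1 read 8.62 and 8.64 against 9.67 to 10.03 and rose by 1.20 ± 0.16 (adjusted p = 6.82e-05). Psmd7 read 7.37 and 7.54 against 8.78 to 9.91, a difference of 1.78 ± 0.27 (adjusted p = 0.000191) that a further Psmd7 probe set did not show (-0.028). Psmd1, the large scaffold of the cap's base, read 9.18 and 9.05 against 10.30 to 10.85 and rose by 1.42 ± 0.21 (adjusted p = 0.000197), and Psmd8 rose by 1.12 ± 0.18 (adjusted p = 0.000279).

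All 7 alpha subunits rose in leukemic NHD13 spleen (median change 0.76), with 5 of 6 constitutive beta subunits (0.70), 5 of 6 ATPases (0.72), 8 of 11 non-ATPases (0.83) and 6 of 7 chaperones (1.05). Psme4, the PA200 activator, rose by 0.56 (limma adjusted p = 0.0192). Psmb8 read 9.48 to 11.35 with a median of 10.57 in leukemic NHD13 spleens against 10.90 and 11.16, a difference of -0.45 ± 0.34 (adjusted p = 0.334). Psmb9 read 8.31 to 10.12 with a median of 9.86 against 10.42 and 10.06, a difference of -0.63 ± 0.35 (adjusted p = 0.184). Psmb10 differed by 0.02 ± 0.26 (adjusted p = 0.965) and Psme1 by 0.25 (adjusted p = 0.228). Leukemic NHD13 spleen 3 was the lowest of the 6 for all 3 immunoproteasome genes, and it also had the lowest level of myeloid granule genes (8.999, against 12.54 or more in the other 5).

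Some partners of the proteasome rose in these spleens, and some class I and interferon-signal genes fell, as did 12.3% of all genes. Of 17 proteasome partners 8 rose in leukemic NHD13 spleen, led by Uchl5 (1.84, adjusted p = 5.93e-05), the proteasome adaptor Ecpas (1.25, adjusted p = 0.000302) and the p97 cofactors Nploc4 (0.81, adjusted p = 0.00116) and Ufd1 (0.80, adjusted p = 0.00291). Of 11 class I genes 4 fell, namely the heavy chains H2-D1 (-1.25, adjusted p = 0.000514) and H2-K1 (-1.26, adjusted p = 0.000572), the peptide transporter Tap1 (-1.01, adjusted p = 0.0182) and B2m (-0.51, adjusted p = 0.0229), and the chaperone Canx rose by 0.61. Of 14 interferon-signal genes 4 fell: Irf1 by 1.80 (adjusted p = 0.00336), Igtp by 1.76 (adjusted p = 0.00344), Stat2 by 1.63 (adjusted p = 0.00829) and Gbp2 by 1.92 (adjusted p = 0.0389; all limma). Markers of lymphocytes fell with them, 7 of 7 for B cells (mean level 11.17 to 11.46 in wild-type and 5.25 to 6.59 in leukemic spleens), 7 of 7 for T cells and 3 of 3 for NK cells, and their part in these differences was not tested. The count of 33 fell to 18 without wild-type spleen 2, and that of all genes from 4801 to 2148.

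**Figure D3:**
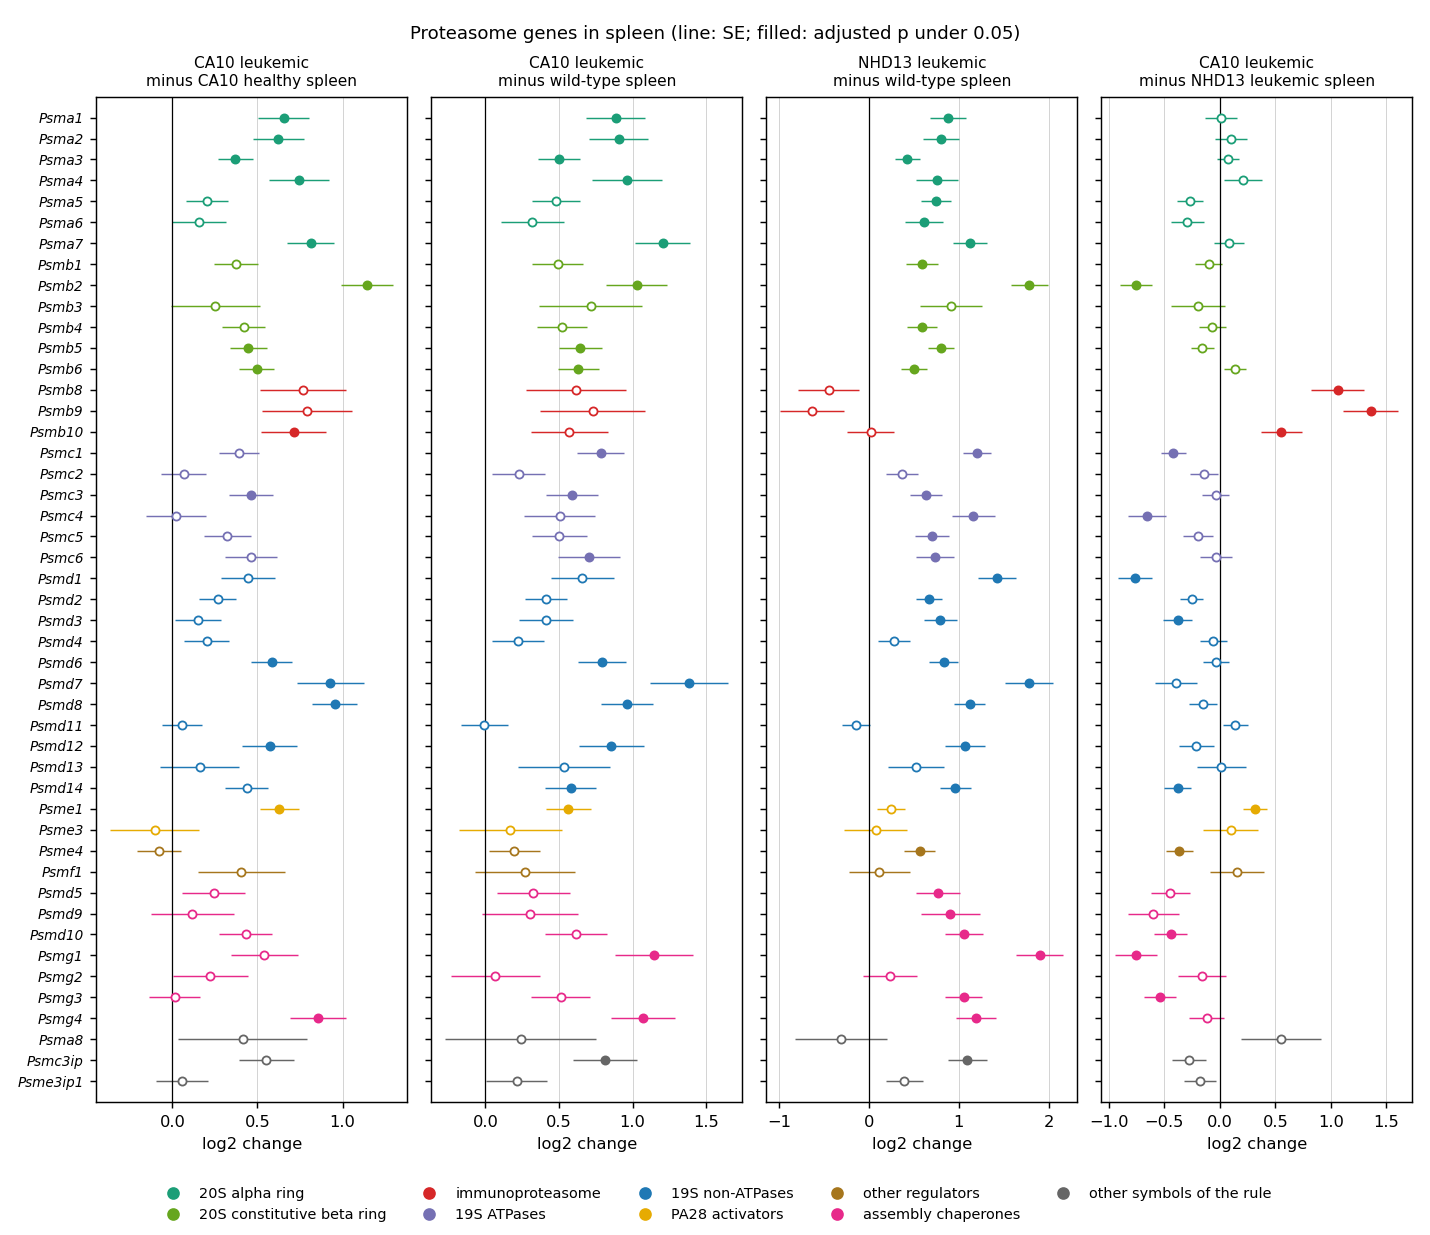
Log2 change (horizontal axis) of each of the 47 proteasome genes in 4 comparisons of spleen groups; lines are 1 SE and filled points have an adjusted p under 0.05. Filled points number 16, 20, 33 and 14 in the leukemic CA10 against healthy CA10, leukemic CA10 against wild-type, leukemic NHD13 against wild-type and leukemic CA10 against leukemic NHD13 comparisons.

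The direct comparison set leukemic CA10 against leukemic NHD13 spleens, which may differ in strain and cell makeup as well as in the fusion. CA10 leukaemias had more of the 3 immunoproteasome genes and of Psme1, and NHD13 leukaemias more of 10 genes of the beta ring, the cap, the chaperones and Psme4. Of all genes, 24.7% were called, 11.7% higher and 13% lower in CA10. Psmb9 ran from 10.52 to 11.47 (median 10.95) in CA10 and from 8.31 to 10.12 (median 9.86) in NHD13 leukemic spleens, with no overlap, and was higher in CA10 by 1.36 ± 0.25 or 2.56-fold (limma adjusted p = 0.00102). Psmb8 ran from 11.32 to 12.00 in CA10 and from 9.48 to 11.35 in NHD13, with 1 NHD13 array above the lowest CA10 array, and was higher by 1.06 ± 0.24 (adjusted p = 0.00448). Psmb10 was higher by 0.55 ± 0.18 (adjusted p = 0.0358) and Psme1 by 0.32 ± 0.11 (adjusted p = 0.0416), both with overlapping arrays.

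On the other side, Psmb2 ran from 9.60 to 10.21 in CA10 and from 10.48 to 10.88 in NHD13 and differed by -0.76 ± 0.15, CA10 minus NHD13 (limma adjusted p = 0.00162). Psmd1 differed by -0.77 ± 0.15 (adjusted p = 0.0018) at 9.50 to 10.10 against 10.30 to 10.85. Psmg1 differed by -0.75 ± 0.19 (adjusted p = 0.00776) at 8.61 to 9.51 against 9.66 to 10.64. The chaperone Psmg3 differed by -0.54 (adjusted p = 0.0113) at 8.89 to 9.13 against 9.13 to 10.15. The 2 leukaemias stood apart for each of these 4 genes, narrowly so for Psmg3. The ATPases Psmc4 (-0.66, adjusted p = 0.0101) and Psmc1 (-0.42, adjusted p = 0.0117) were lower in CA10 with overlap, as were Psmd10, Psmd3 and Psme4, and Psmd14, the cap's deubiquitinase, was lower without overlap. The groups did not overlap for 5 lower genes and 1 higher gene, against 5.15% and 5.72% of all genes. No alpha subunit passed (0 of 7 by limma, 1 under an unadjusted p of 0.05; median difference 0.07), and 3 of 7 chaperones were lower.

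Interferon-signal genes and class I genes were also higher in leukemic CA10 than in leukemic NHD13 spleens. Of 14 interferon-signal genes 10 were higher and 0 lower, with a median of 1.61: Stat2 by 1.90 (adjusted p = 0.000339), the GTPases Igtp by 1.67 (adjusted p = 0.000562) and Irgm1 by 1.21 (adjusted p = 0.00148), and Gbp2 by 2.54 (adjusted p = 0.00124; all limma). Of 11 class I genes 7 were higher and 1 lower, with H2-K1 by 1.36 and H2-D1 by 1.32 (adjusted p = 1.27e-05 for both), Tap1 by 1.11 (adjusted p = 0.00158) and B2m by 0.53 (adjusted p = 0.0031). Of the 17 partners 3 were lower: Ecpas (-0.73, adjusted p = 0.00151), Nploc4 (-0.40, adjusted p = 0.0145) and the deubiquitinase Usp14 (-0.43, adjusted p = 0.0392). Dendritic-cell markers were higher for 5 of 5 genes, with mean levels of 7.11 to 9.62 in CA10 and 5.61 to 6.85 in NHD13 leukaemias, and markers of B and T cells for 5 of 7 each. The part of these cells in the immunoproteasome difference was not tested.

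Psmb8 and Psmb9 stayed called whichever array was left out; without leukemic NHD13 spleen 3 the differences were 0.84 for Psmb8 and 1.10 for Psmb9, while Psmb10 at 0.41 (limma adjusted p = 0.0725) and Psme1 at 0.30 (adjusted p = 0.0726) missed the threshold. The count of 14 genes fell to 9 without leukemic CA10 spleen 1, 8 without leukemic CA10 spleen 4 and 9 without leukemic NHD13 spleen 3. Calls among all genes went from 3782 to 3064, 3032 and 3495. A further Psmb8 probe set gave 0.63 (adjusted p = 0.109). A further Psme3 probe set gave 1.91 (adjusted p = 0.000253) and, for leukemic NHD13 against wild-type spleen, -1.95 (adjusted p = 0.00284), where the probe set used gave 0.10 and 0.07, so no direction is stated between these spleens for Psme3, the nuclear PA28 subunit.

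The subunits that replace each other in the core were also set against each other on the same array. Psmb9 minus Psmb6 was 0.59 ± 0.45 in leukemic CA10 spleens, 0.49 ± 0.15 in wild-type spleens, 0.29 ± 0.14 in healthy CA10 spleens and -0.64 ± 0.79 in leukemic NHD13 spleens. Psmb8 minus Psmb5 was 0.90 ± 0.37 in leukemic CA10 spleens, from 0.54 to 1.49, and -0.32 ± 0.67 in leukemic NHD13 spleens, from -1.43 to 0.48, with no overlap. In marrow the same difference was -0.57 in wild-type whole marrow and 0.17 in C57B6 whole marrow, and in lineage-negative marrow -1.24, -1.70 and -2.42 for wild type, CA10 and NHD13. These differences join 2 probe sets, so their zero has no meaning and only shifts between groups can be read.

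**Figure D4:**
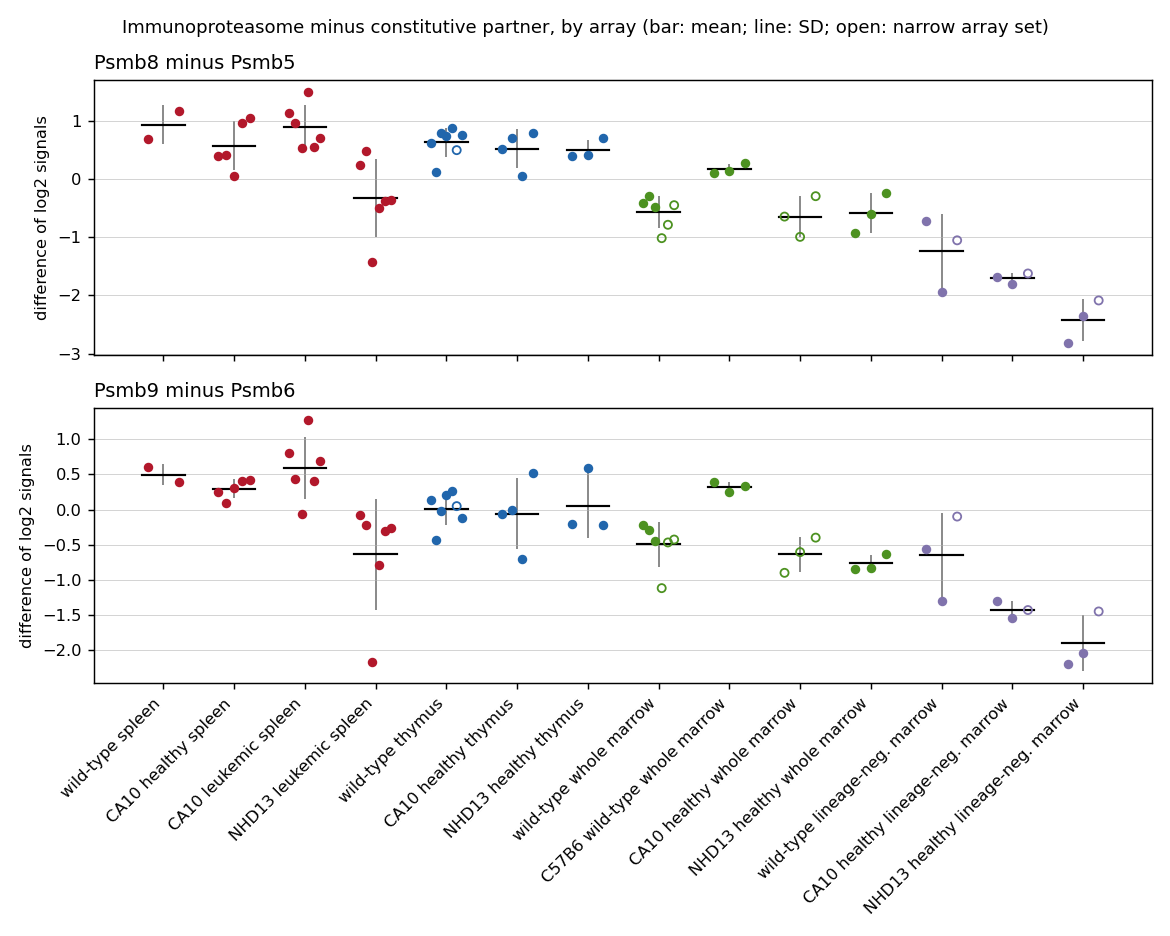
Log2 signal of Psmb8 minus Psmb5 and of Psmb9 minus Psmb6 (vertical axes) on each array by group; dots are arrays, bars means and lines 1 SD. For Psmb8 minus Psmb5 the leukemic CA10 spleens lie from 0.54 to 1.49 and the leukemic NHD13 spleens from -1.43 to 0.48.

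Wild-type tissues gave the range of these genes without a transgene. Thymus had more of the immunoproteasome than whole marrow: Psmb8 read 10.54 to 11.41 (median 11.30) in 7 thymuses and 9.003 to 10.20 (median 9.61) in 6 marrows, with no overlap, and was higher by 1.51 ± 0.24 (limma adjusted p = 9.33e-07). Psmb10 read 9.30 to 10.62 against 8.34 to 9.16, also apart, and was higher by 1.42 (adjusted p = 2.92e-07), and Psmb9 was higher by 0.99 (adjusted p = 0.000969) with overlap. Altogether 10 proteasome genes were higher and 4 lower, where 49.8% of all genes were called, 25.6% higher and 24.2% lower. The others higher included Psme1 (0.54, adjusted p = 0.0063), Psma3 (0.63), Psmb3 (0.99), Psma6 (0.58), Psma4 (0.63), Psmb6 (0.49) and Psmc1 (0.60). The lower genes were the inhibitor Psmf1 (-1.81, adjusted p = 2.09e-07), Psme3 (-1.67, adjusted p = 3.2e-06; -1.99 by its further probe set) and the 19S chaperones Psmd5 (-0.82) and Psmd9 (-0.79); a further Psmd9 probe set gave 0.36. Within the wide arrays alone the immunoproteasome differences were 1.24, 0.85 and 1.32 for Psmb8, Psmb9 and Psmb10. Without wild-type thymus 2 they were 1.60, 1.12 and 1.57. The balance of 10 higher and 4 lower genes became 7 and 6 with the array set as a block, and 11 and 4 within the wide arrays. In the narrow arrays, where wild-type thymus 6 was the only thymus, Psme1, Psmb6 and Psmc1 were lower than in marrow. Among further probe sets of the called genes, 2 kept the direction but did not pass the test.

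Spleen held more Psmb8 (1.43, limma adjusted p = 0.00343) and Psmb10 (1.00, adjusted p = 0.0265) than whole marrow, and Psmb9 was at 0.94 (adjusted p = 0.0914). These were 2 of 47 genes, where 10.7% of all genes were called and 7.64% were higher, and within the wide arrays Psmb8 at 1.06 and Psmb10 at 0.80 missed the threshold. Leaving out wild-type spleen 2 gave a count of 0, and leaving out spleen 1 or wild-type marrow 4 a count of 1. Calls among all genes went from 1642 to 431, 802 and 1376. Psme1 differed by 0.69 and did not pass. A further Psmb8 probe set kept the direction but did not pass the test.

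In lineage-negative marrow, constitutive genes were higher than in whole marrow and no immunoproteasome gene passed. Higher were 21 of 47 genes and lower 0, where 26.3% of all genes were called and 14.9% were higher. Psmb3 read 11.24, 11.30 and 11.37 in lineage-negative and 8.79 to 10.03 in whole marrow, 1.69 higher with no overlap (limma adjusted p = 1.02e-05), and Psma3 read 12.15, 12.29 and 12.03 against 10.84 to 11.22, 1.08 higher (adjusted p = 2.48e-06). The alpha subunit Psma5 (0.98, adjusted p = 7.82e-06), the chaperones Psmg3 (1.13, adjusted p = 0.000162) and Psmg1 (1.37, adjusted p = 0.000484), the lid subunit Psmd12 (1.28, adjusted p = 0.000491) and Psme1 (0.66, adjusted p = 0.0147) were also higher. Among further probe sets of these called genes, 4 kept the direction but did not pass the test. Psmb8, Psmb9 and Psmb10 differed by 0.01, 0.13 and 0.38, and none passed. The count fell to 12 without wild-type lineage-negative marrow 2, and that of all genes from 4020 to 2786.

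Lineage-negative marrow of healthy NHD13 mice had the lowest mean level of the 14 groups for each immunoproteasome gene, but no proteasome gene passed the test against wild type in this tissue. Psmb8 read 10.01, 8.89 and 9.96 in wild-type, 9.16, 8.96 and 8.65 in CA10 and 7.72, 8.48 and 7.26 in NHD13 arrays. NHD13 lay below wild type without overlap, by -1.80 ± 0.40 (limma adjusted p = 0.352), and CA10 overlapped wild type at -0.69 ± 0.40 (adjusted p = 1). Psmb9 read 9.48, 8.98 and 9.83 in wild-type, 8.85, 8.82 and 7.94 in CA10 and 7.82, 8.32 and 7.22 in NHD13 arrays. Both transgenic groups lay below wild type without overlap, by -1.64 ± 0.39 in NHD13 (adjusted p = 0.425) and by -0.89 ± 0.39 in CA10 (adjusted p = 1). Psme1 read 10.86, 10.62 and 10.75 in wild-type and 9.74, 10.40 and 8.81 in NHD13 arrays, a difference of -1.10 ± 0.39 (adjusted p = 0.946), and -0.36 in CA10. Psmb10 differed by -0.66 ± 0.29 in NHD13 (adjusted p = 0.946) and by -0.27 in CA10.

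None of the 47 genes passed in either comparison (0 and 0), where 0.0588% of all genes passed for NHD13 and 0% for CA10 (limma); under an unadjusted p of 0.05 were 4 genes for NHD13 and 1, Psmb9, for CA10. The 44 genes outside the immunoproteasome had a median difference of -0.41 in NHD13, against -0.05 for all genes, and of -0.04 in CA10. The median of 11 class I genes was -1.20 in NHD13 with 0 called and 5 under an unadjusted p of 0.05. In a model of all 57 arrays, 3 genes were lower in NHD13: Psmb8 (adjusted p = 0.00553), Psmb9 (0.0204) and Psme1 (0.0204). Stem and progenitor markers were at 6.80 to 7.31 in NHD13, 7.67 to 8.24 in wild-type and 7.66 to 8.02 in CA10 arrays, monocyte markers at 5.61 to 6.26, 6.19 to 6.70 and 6.19 to 6.51, and their part was not tested. NHD13 array 3 carried the wide Gapdh gap, and without it the NHD13 differences were -1.52 for Psmb8, -1.36 for Psmb9, -0.53 for Psmb10 and -0.68 for Psme1.

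A test of whether the NHD13 difference from wild type was alike in thymus, whole marrow and lineage-negative marrow passed for 3 of 47 genes, against 0.856% of all genes (limma moderated F test). Psmb8 differed by 0.15 in thymus, 0.35 in whole marrow and -1.80 in lineage-negative marrow (adjusted p = 0.0112). Psme1 differed by 0.11, 0.27 and -1.10 (adjusted p = 0.0278), and Psmb9 by 0.41, 0.01 and -1.64 (adjusted p = 0.0352). Against wild-type marrows 1 to 3, which are wide like the NHD13 arrays, the whole-marrow differences were -0.02 for Psmb8, -0.23 for Psmb9 and 0.19 for Psme1. Psmb10 did not pass (adjusted p = 0.261), and no gene passed with the Gapdh gap as a covariate (0 of 47). For CA10, with spleen added, 0 of 47 genes and 0% of all genes passed, with 1 gene under an unadjusted p of 0.05.

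In whole marrow no proteasome gene passed against the 6 wild-type marrows. For CA10 the immunoproteasome differences were -0.31, -0.48 and -0.22 for Psmb8, Psmb9 and Psmb10, with 0 of 47 called where 0% of all genes were, and 8 of 47 under an unadjusted p of 0.05 (limma). For NHD13 they were 0.35, 0.01 and 0.23, with 0 of 47 called where 1.18% of all genes were, 22 of 47 under an unadjusted p of 0.05 and a median of 0.36 over the 47. Psme1 differed by -0.25 in CA10 and by 0.27 in NHD13. The choice of control changed these counts: all 3 CA10 arrays and wild-type marrows 4 to 6 are narrow, while wild-type marrows 1 to 3 and the NHD13 arrays are wide. CA10 against wild-type marrows 1 to 3 gave 1 higher and 30 lower, where 8562 of all 15310 genes were called. NHD13 against marrows 4 to 6 gave 32 higher and 1 lower, where 8296 of all genes were called. CA10 against marrows 4 to 6, within the narrow arrays, gave 0.

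The C57B6 marrows differed from the other wild-type marrows in the immunoproteasome. Psmb8 read 10.54, 10.45 and 10.61 in C57B6 and 9.003 to 10.20 in the others, apart, and was 0.93 ± 0.24 higher (limma adjusted p = 0.0136). Psmb9 read 9.95, 10.14 and 9.92 against 8.73 to 9.69 and was 0.70 higher (adjusted p = 0.0169), and Psmb10 read 9.41, 9.30 and 9.38 against 8.34 to 9.16 and was 0.64 higher (adjusted p = 0.0211), both apart. Psme1 (0.60, adjusted p = 0.0332) and Psmb2 (0.86, adjusted p = 0.0213) were higher, and Psmf1 (-0.72, adjusted p = 0.0361), Psmg2 (-0.71, adjusted p = 0.0393) and Psme3 (-0.61, adjusted p = 0.0403; -2.76 by its further probe set) lower, 5 higher and 3 lower where 19.2% of all genes were called, 14% higher and 5.2% lower. Among further probe sets of these called genes, 5 kept the direction but did not pass the test. Monocyte markers were higher for 6 of 6 genes. Within the wide arrays the immunoproteasome differences of 0.56, 0.46 and 0.44 did not pass, and no gene was higher there (0 higher, 3 lower) or with the array set as a block (0 and 4), while quantile normalization gave 3 higher and 9 lower and the Gapdh covariate 3 higher and 0 lower. The count of 8 fell to 0 without C57B6 marrow 1, 3 without C57B6 marrow 2, 2 without C57B6 marrow 3 and 5 without wild-type marrow 3, 4 or 5. Without C57B6 marrow 1, 2 or 3 calls among all genes went from 2946 to 1613, 1932 and 1534.

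Because strain is not labelled elsewhere, strain and transgene cannot be told apart in the comparisons of NHD13 and CA10 mice. In a model of all arrays, leukemic NHD13 against wild-type spleen had 21 higher genes, and 5 with the C57B6 difference subtracted. Leukemic CA10 against NHD13 spleen had 2 higher and 6 lower in that model, and 4 higher and 0 lower after the subtraction, with Psmb8 at 1.99 (limma adjusted p = 0.000653), Psmb9 at 2.06 and Psmb10 at 1.19. The subtraction has meaning only if NHD13 mice are C57B6, the mice set against them are not, and marrow differences hold in spleen. The labels give none of these, and the C57B6 difference was also mixed with the array set.

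In thymus no proteasome gene passed. The CA10 differences from wild type were -0.19, -0.18 and -0.08 for Psmb8, Psmb9 and Psmb10, with 0 of 47 called where 0% of all genes were, and 0 of 47 under an unadjusted p of 0.05 (limma). The NHD13 differences were 0.15, 0.41 and 0.43, with 0 of 47 called where 0.764% of all genes were, 10 of 47 under an unadjusted p of 0.05 and a median of 0.43 over the other 44 genes. Psme1 differed by 0.11 in NHD13 and by -0.06 in CA10. CA10 against NHD13 thymus gave 0 of 47, where 0.216% of all genes were called, with 15 under an unadjusted p of 0.05 and a median of -0.47. The immunoproteasome median was -0.51 there. The NHD13 count was 1 without wild-type thymus 2, the array at odds with its label, and 3 without wild-type thymus 6, the narrow one. Without wild-type thymus 2 the immunoproteasome differences were 0.06, 0.28 and 0.29 in NHD13 and -0.28, -0.31 and -0.22 in CA10.

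**Figure D5:**
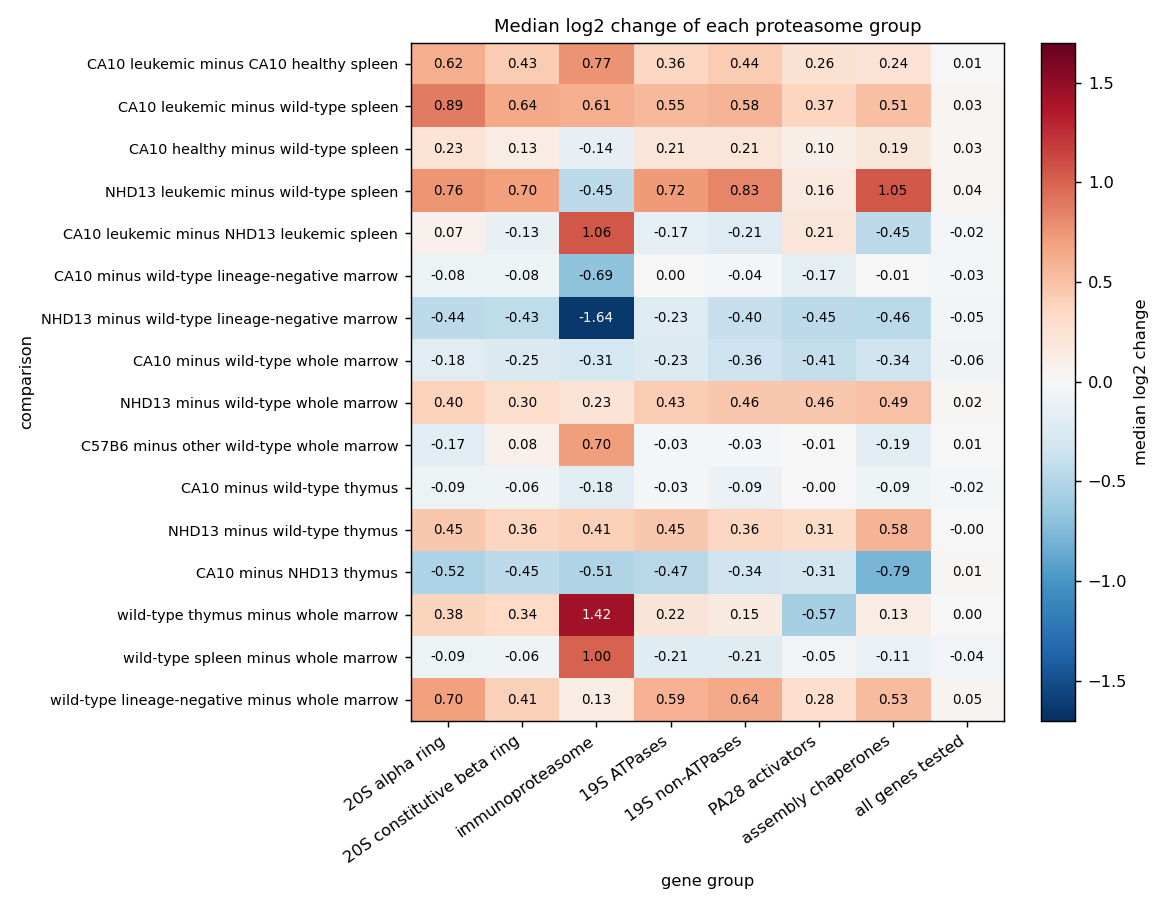
Median log2 change (colour and printed value) of each role group of proteasome genes and of all 15310 genes tested (columns) in 16 comparisons (rows). The immunoproteasome median is 1.06 in leukemic CA10 against NHD13 spleen, where that of the alpha ring is 0.07, and -0.45 in leukemic NHD13 against wild-type spleen, where that of the alpha ring is 0.76.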

How the data were processed

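RNA was extracted with Trizol and 100 ng per sample was labelled, per the labels' protocols. The deposited values are log2 signals of 44943 Affymetrix probe sets on 57 arrays, which the authors made with RMA per the submitters' processing notes; the RMA version is not given in the sources used. The values were used without further scaling. Probe sets with 1 gene in the platform annotation (34842) represented 18165 genes, each by its probe set of highest mean; 27 of the 47 proteasome genes had several. Probe sets shared by several genes (931) were left out, among them that of Psme2, and further Psmb symbols are not reported here. Genes above the 40th percentile of their array on at least 3 arrays (15310) were fitted with limma 3.58.1 (lmFit, eBayes; R 4.3.3), 1 model per tissue and 1 of all arrays for wild-type tissues. p-values were adjusted by Benjamini-Hochberg over all 15310 genes, with a threshold of 0.05. In simulated data 100 of the 15310 genes were changed by each size. The model recovered 46% of log2 changes of 1 and 90% of changes of 2 for leukemic CA10 against wild-type spleen. The shares were 46% and 92% for leukemic NHD13 against wild-type spleen and 83% and 96% for leukemic CA10 against NHD13 spleen. For CA10 against wild-type lineage-negative marrow they were 4% and 50%, so a lack of calls there does not show a lack of change. In the real data 31.4% of all genes were called for leukemic NHD13 against wild-type spleen. So many changed genes were not simulated, so the shares may not hold for that comparison.

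Psmb8, Psmb9, Psmb10 and Psme1 were named in every comparison except CA10 against NHD13 thymus, where the immunoproteasome median is given. Up to 6 other called genes per direction with the smallest adjusted p were named as well. For leukemic spleens, up to 4 called genes of each neighbouring list were named. Called genes of these lists in the other comparisons are not named. Further genes were named after their values were seen. The genes and lists were chosen with earlier results of these data known. Numbers of arrays limit the precision. Deviations correlated between arrays of the same replicate number in the lineage-negative marrows (0.20 to 0.70 for CA10 with wild type and 0.21 to 0.74 for NHD13). By the rule that every one of at least 3 pairs exceed 0.1, they did so in no other groups. The labels do not state that these arrays are pairs, and array 3 of each lineage-negative group is narrow. The lineage-negative p-values in the Results come from the model without pairing. Promoters came from RefSeq (GRCm38.p6), matched by Entrez gene identifier. Alternatives were another normalization, filter, probe set rule, variance model, set of samples or control, the array set, the replicate block, the Gapdh gap and leaving out each array.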

Additional observations from a re-analysis of the deposited data

Results flagged for a closer look

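In groups of 4 to 10 arrays, 9 of 96 group levels of the named genes had 1 array far from the rest by Dixon's test, which chance gives in about 1 in 20. Of these, 6 were the low values of wild-type thymus 6, the narrow thymus array: Psmc1 at 8.29, Psmd1 at 8.19, Psmd6 at 9.52, Psmd7 at 7.35, Psme1 at 9.88 and Psmg1 at 8.07. The others were Psmb10 at 9.89 in leukemic CA10 spleen 5, Psmg3 at 8.89 in leukemic CA10 spleen 4 and Psmd6 at 10.6 in healthy CA10 spleen 2.

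The NHD13 difference from wild type varied between tissues for Psmb8 (limma adjusted p = 0.0112), Psmb9 (0.0352) and Psme1 (0.0278), with the lowest difference of each gene in lineage-negative marrow. With the Gapdh gap as a covariate no gene passed (0 of 47). With the array set as a block, an alternative chosen after seeing the data, the count of such genes was 6 in place of 3.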

How the results depend on the processing

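Counts of proteasome genes called (higher plus lower) that moved by over 1.5 times were as follows. Quantile normalization gave 10 for leukemic CA10 against healthy CA10 spleen (16), 11 for leukemic CA10 against wild-type spleen (20), 19 for leukemic NHD13 against wild-type spleen (33), 9 for leukemic CA10 against NHD13 spleen (14; 4 higher, 5 lower), 2 for NHD13 thymus (0) and 5 for wild-type spleen against marrow (2), and it shifted the median of all genes by 0.117 in CA10 whole marrow. All 57 arrays in 1 model gave 5, 5, 21, 8 and 2 for the first 5 of these, 3 for NHD13 lineage-negative marrow (0) and 2 for C57B6 marrow (8). The Gapdh covariate gave 9 for leukemic CA10 against healthy CA10 spleen, 3 for C57B6 marrow and 0 for the NHD13 tissue difference (3). In the model of all arrays, which alone gave the 21 and 8 above, subtracting the C57B6 difference gave 5 for leukemic NHD13 against wild-type spleen and 4 for leukemic CA10 against NHD13 spleen, and 8 and 2 when it was taken from wild-type marrows 1 to 3, a choice made after seeing the data. Wild-type marrows 1 to 3 as control gave 31 for CA10 marrow (0), marrows 4 to 6 gave 33 for NHD13 marrow (0), and C57B6 marrow gave 10 and 13. Of all genes, 8562 and 8296 were called with these wild-type controls, and 6442 and 2467 with C57B6 marrow. The array set as a block gave 4 for C57B6 marrow (all lower), 3 for NHD13 thymus, 1 for CA10 against NHD13 thymus (0), 11 for spleen against marrow (1 higher, 10 lower) and 6 for the NHD13 tissue difference. The wide arrays alone gave 3, 3, 1 and 4 for the first 4 of these. Fitting only the 2 groups compared gave 1 for C57B6 marrow and 5 for spleen against marrow.

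With the replicate block, the lineage-negative marrows had 0 genes called, as without it, and Psmb8 in NHD13 an adjusted p of 0.169 (limma). In groups that did not meet the rule for correlated deviations, the block gave 28 for CA10 marrow, all lower, and 3 for C57B6 marrow. Of all genes, the block called 8231 and 1848 there. It moved no other count by over 1.5 times.

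Leaving out each array gave 5 to 21 for leukemic CA10 against healthy CA10 spleen, 0 to 21 for leukemic CA10 and 18 to 33 for leukemic NHD13 against wild-type spleen, 8 to 15 for leukemic CA10 against NHD13 spleen, 0 to 8 for C57B6 marrow, 0 to 3 for NHD13 thymus, 0 to 1 for NHD13 marrow (1 without wild-type marrow 3), 0 to 3 for spleen against marrow, 12 to 22 for lineage-negative against whole marrow and 13 to 20 for thymus against marrow.

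Of 2231 values of named genes under these alternatives, 2006 kept their side of the threshold, 193 lost the call and 25 gained it. The other 7 were called in the main test and changed sign. Changes of sign in values not called in the main test were not counted. A further Psmd7 probe set gave -0.34 for leukemic CA10 and -0.028 for leukemic NHD13 against wild-type spleen. Psmb2 was at 0.10 in leukemic CA10 against NHD13 spleen with the C57B6 difference subtracted. For wild-type thymus against marrow, the narrow arrays gave -0.12 for Psme1, -0.091 for Psmb6 and -0.43 for Psmc1, and a further Psmd9 probe set gave 0.36. The cause of these changes was not tested.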
